A study of Mus musculus with 335 samples.

Results

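The genes described here are the TGF-beta ligands Tgfb1, Tgfb2 and Tgfb3 and their receptors Tgfbr1, Tgfbr2 and Tgfbr3, taken by name wherever the deposited table of estimated counts held a row for them. A row was found for 5 of the 6 listed genes, among 13448 rows with a gene symbol, and Tgfb3 was not analysed here. On GRCm38, GENCODE M21 places Tgfb1 at chr7:25687002-25705077, Tgfb2 at chr1:186622792-186705989, Tgfbr1 at chr4:47353222-47414931, Tgfbr2 at chr9:116084293-116175360 and Tgfbr3 at chr5:107106570-107289629. Wild-type mouse embryos of stage E11.5 gave the cells, all from the aorta-gonad-mesonephros (AGM), where haematopoietic stem cells (HSCs) arise, and each cell was sequenced singly by Smart-seq2, which reads full-length transcripts. There were 4 sorted groups: 65 EPCR+CD45+ cells, named HSC after the stem cells this sort holds, 93 dorsal Ngfr+Pdgfrb- cells (Dorsal), 89 ventral cells of the same Ngfr+Pdgfrb- gate (Ventral) and 88 ventral Pdgfrb+Ngfr- cells (Mesenchymal). Every group was 1 sequencing pool and no label names an animal or litter, so a group counted as 1 sample, and a difference between groups cannot be told apart from a difference between pools. No test was possible, and all limits given below cover counting error only.

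TGF-beta ligands are secreted as latent dimers bound to their own propeptide and are released from it outside the cell. An active dimer binds the type II receptor Tgfbr2, which recruits and phosphorylates the type I receptor Tgfbr1, and Tgfbr1 then phosphorylates SMAD2 and SMAD3. Tgfbr3, or betaglycan, is a co-receptor with no kinase that presents ligand to Tgfbr2 and is known above all for letting TGF-beta2 bind. In blood-forming tissue TGF-beta is known as a brake on HSC cycling, and in vessel walls as a signal for smooth muscle and matrix genes.

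The promoters of both ligands and of the type II receptor are shown because Tgfb1 and Tgfbr2 had their highest summed level in HSC and Tgfb2 its lowest. RefSeq's table on GRCm38.p6 held a start site for 4 of the 5 genes. The 250 bases before the start are printed 5′ to 3′ on the gene's strand, with capitals for any match, on either strand, to the TATA box (TATAAA), the CCAAT box (CCAAT), the GC box (GGGCGG), the E-box (CACGTG), the AP-1 site (TGANTCA) or the SMAD box (CAGAC). No matches overlapped in these windows.
Tgfb1, chr7:25686752-25687001, plus strand: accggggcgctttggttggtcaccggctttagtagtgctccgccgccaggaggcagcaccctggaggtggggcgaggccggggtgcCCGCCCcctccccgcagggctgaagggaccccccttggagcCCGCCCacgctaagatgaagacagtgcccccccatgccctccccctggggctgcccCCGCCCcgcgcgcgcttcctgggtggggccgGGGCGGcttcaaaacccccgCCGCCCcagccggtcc
Tgfb2, chr1:186705990-186706239, minus strand: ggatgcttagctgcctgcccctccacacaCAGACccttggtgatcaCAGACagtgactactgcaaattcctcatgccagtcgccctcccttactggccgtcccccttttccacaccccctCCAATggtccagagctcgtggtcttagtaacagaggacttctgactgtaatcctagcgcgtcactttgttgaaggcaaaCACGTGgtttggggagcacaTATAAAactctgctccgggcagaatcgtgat
Tgfbr2, chr9:116175364-116175613, minus strand: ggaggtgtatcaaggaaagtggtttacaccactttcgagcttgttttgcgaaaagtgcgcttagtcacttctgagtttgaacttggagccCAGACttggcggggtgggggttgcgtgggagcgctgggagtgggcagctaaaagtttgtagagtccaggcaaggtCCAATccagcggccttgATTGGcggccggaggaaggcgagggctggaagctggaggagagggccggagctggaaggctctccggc
The Tgfb1 window was 75.2% G and C and held 5 GC boxes and no other of the 6 motifs. The Tgfb2 window was 53.6% G and C and held a TATA box that starts at base -31, an E-box at -51, a CCAAT box at -130 and 2 SMAD boxes. The Tgfbr2 window was 58.4% G and C and held 2 CCAAT boxes and 1 SMAD box. Over 32851 windows of the same length the median was 52.4% G and C. A TATA box was present in 12.4% of those windows, an E-box in 6.02%, a CCAAT box in 33.8%, a GC box in 32.7%, a SMAD box in 42.2% and an AP-1 site in 6.75%. A match describes the letters and is not a binding site.

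Estimated counts summed to 82516453 over HSC, 108409099 over Dorsal, 110598792 over Ventral and 68560755 over Mesenchymal cells, and the median cell held 943772, 1033890, 574689 and 505916 counts in the same order. Levels are counts per 1000000 counts of the group (CPM). The sort genes matched the labels at the level of the groups: Procr, which encodes EPCR, had at least 5 counts in 55 of 65 HSC cells and Ptprc, which encodes CD45, in 60 of 65, Ngfr in 81 of 93 Dorsal and 47 of 89 Ventral cells, and Pdgfrb in 70 of 88 Mesenchymal cells. A single cell, Ventral 41, held 18.5% of the counts of its group. It held 11531 counts of the mesenchymal factor Prrx1, 152.6 of Ngfr, 2.7 of Sox10 and 0 of Pdgfrb. Its 4 measured mesenchyme markers summed to 996 CPM, against 24.3 CPM in the median and 1769 CPM in the highest Ventral cell. Because of its depth, the members' summed Ventral levels in CPM are also given without Ventral 41, which for Tgfbr2 was 35.4 CPM. Macrophage markers, 10 measured, were present in both Ngfr+ groups: 7 Dorsal and 11 Ventral cells had at least 5 counts of 9 or 10 of the markers, 0 cells had 7 or 8 and 0 HSC and 0 Mesenchymal cells reached 7.

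Tgfb2, a ligand known from mesenchyme and neural crest derivatives, was high in the Dorsal, Ventral and Mesenchymal groups and nearly missing from HSC. Its level was 0.247 CPM (95% Poisson limits 0.151 to 0.379) in HSC, 69.9 CPM (68.3 to 71.5) in Dorsal, 92.8 CPM (91 to 94.6) in Ventral and 114 CPM (112 to 117) in Mesenchymal. Without Ventral 41, Tgfb2 stood at 114 CPM in Ventral, the level of Mesenchymal. In HSC it rested on 20 counts, of which 13 lay in 1 cell, and 60 of 65 cells had 0. Over cells the lowest, median and highest levels were 0, 0 and 45.8 CPM in HSC, 0, 13.9 and 472 CPM in Dorsal, 0, 10.9 and 925 CPM in Ventral, and 0, 89.5 and 893 CPM in Mesenchymal. The full ranges over single cells overlapped in all 4 groups, and the interquartile range of HSC cells (0 to 0) touched that of Ventral cells (0 to 153 CPM) but not those of Dorsal (0.695 to 91.1 CPM) or Mesenchymal cells (9.45 to 182 CPM).

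Each cell of at least 310000 counts was thinned to that depth. At least 5 Tgfb2 counts were then found in 0 of 64 HSC cells, which allows a share of up to 4.69% counted as 3 cells (exact upper limit 5.60%). The share was 46.7% (43 of 92; exact Clopper-Pearson limits 36.3 to 57.4) in Dorsal, 51.2% (41 of 80; 39.8 to 62.6) in Ventral and 69.6% (48 of 69; 57.3 to 80.1) in Mesenchymal. Unthinned, the shares were 1.54% of HSC, 57% of Dorsal, 49.4% of Ventral and 73.9% of Mesenchymal cells. The 1 HSC cell behind that share, HSC 3, held 276480 counts. It was too shallow for the thinning to 310000 counts, so the 0 of 64 leaves it out. Thinned to 200000 counts, which kept HSC 3, the HSC share was 1.54%. Dorsal and Ventral neighboured each other in the order of levels and their limits on the share overlapped. Of 93 Dorsal cells 19 were at 0, 40 between 0 and 50 CPM and 34 at or above 50 CPM. The same counts were 26, 27 and 36 of 89 Ventral cells and 16, 19 and 53 of 88 Mesenchymal cells.

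Tgfb1, the ligand that blood cells and platelets are known to make, was low in all 4 groups. Its level was 11.9 CPM (11.2 to 12.7) in HSC, 2.29 CPM (2.01 to 2.59) in Dorsal, 4.60 CPM (4.21 to 5.02) in Ventral and 1.65 CPM (1.36 to 1.99) in Mesenchymal. Single cells held much of these sums. HSC 23, the deepest HSC cell, held 63.5% of the 984 HSC counts, and without it HSC stood at 4.76 CPM. Ventral 21, a cell with 10 of 10 macrophage markers, held 51.3% of the 509 Ventral counts, and without it Ventral stood at 2.32 CPM. Without the deepest cell of each group, HSC 23 and Ventral 41 among them, HSC stood at 4.76 CPM and Ventral at 5.36 CPM. The median cell stood at 1.38 CPM in HSC and at 0 in the other groups, and the highest cell at 88.2 CPM among HSC, 50 CPM among Dorsal, 151 CPM among Ventral and 17.4 CPM among Mesenchymal cells. The share of thinned cells with at least 5 counts was 12.5% (8 of 64; 5.55 to 23.2) of HSC, 3.26% (0.678 to 9.23) of Dorsal, 5.0% (1.38 to 12.3) of Ventral and 2.90% (0.353 to 10.1) of Mesenchymal cells, and all 4 sets of limits overlapped.

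**Figure D1:**
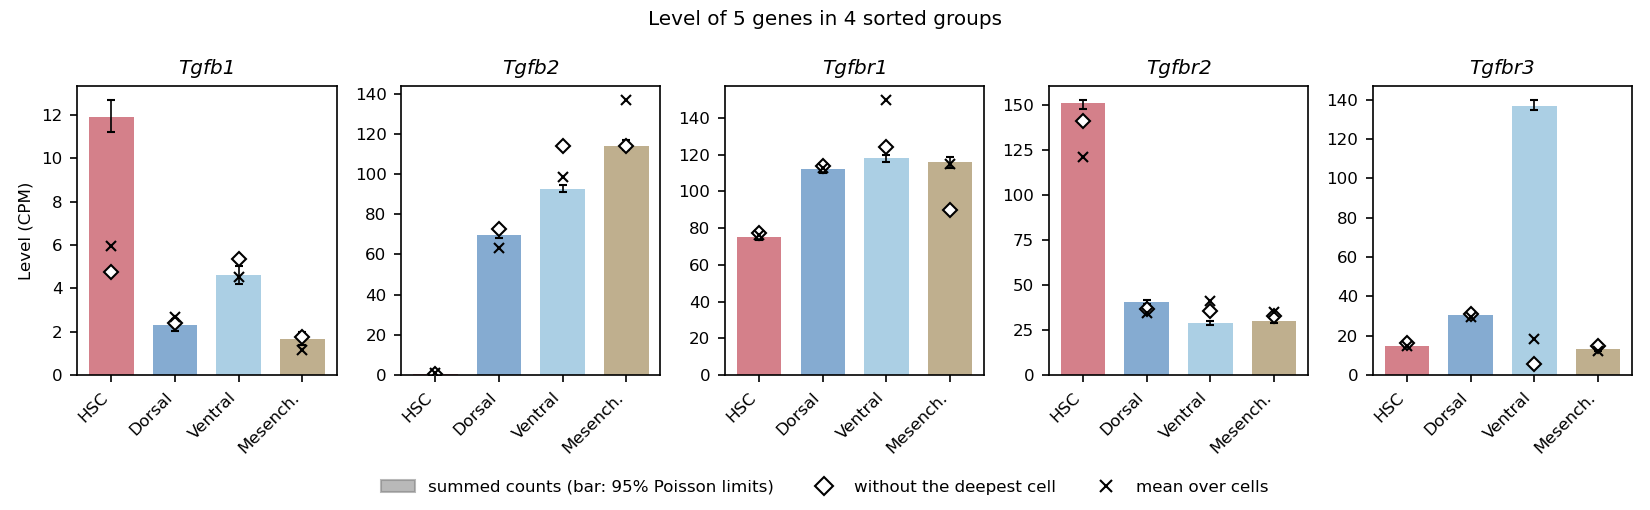
Level of each of the 5 genes in the 4 sorted groups, in CPM, with bars for summed counts, error bars for 95% Poisson limits, diamonds for the value without the deepest cell of the group and crosses for the mean over cells. Tgfb2 is at 0.247 CPM in HSC and at 69.9 to 114 CPM elsewhere, Tgfbr2 is at 151 CPM in HSC and at 29 to 40.4 CPM elsewhere, and the Ventral bar of Tgfbr3 (137 CPM) stands far above its diamond (5.77 CPM).

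Tgfbr2, the ligand-binding type II receptor, was highest in HSC, where Tgfb2 was lowest. Its level was 151 CPM (148 to 153) in HSC, 40.4 CPM (39.3 to 41.7) in Dorsal, 29 CPM (28 to 30) in Ventral and 30.1 CPM (28.8 to 31.4) in Mesenchymal. The counting limits of Ventral and Mesenchymal overlapped. Over cells the lowest, median and highest levels were 2.93, 65.8 and 740 CPM in HSC, 0, 10.5 and 346 CPM in Dorsal, 0, 5.59 and 526 CPM in Ventral and 0, 8.03 and 333 CPM in Mesenchymal. The interquartile ranges of HSC and Dorsal cells overlapped, with quartiles of 23.7 and 167 CPM in HSC and 5.05 and 45.6 CPM in Dorsal. The HSC cell was the higher one in 79.7% of all pairs of an HSC with a Dorsal cell.

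Low Tgfbr2 counts were found almost everywhere: 311 cells of the 4 groups had a count above 0, among them 41 Ventral and 41 Mesenchymal cells with fewer than 5. A level of at least 50 CPM was reached by 38 of 65 HSC, 21 of 93 Dorsal, 18 of 89 Ventral and 18 of 88 Mesenchymal cells. Of these, 7 of the 21 Dorsal and 9 of the 18 Ventral cells had at least 7 macrophage markers. The share of thinned cells with at least 5 counts was 84.4% (54 of 64; 73.1 to 92.2) of HSC, 40.2% (30.1 to 51) of Dorsal, 25% (16 to 35.9) of Ventral and 34.8% (23.7 to 47.2) of Mesenchymal cells. The limits of HSC overlapped with none of the others, and those of the other 3 groups overlapped with each other.

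Tgfbr1, the type I receptor kinase, had the smallest ratio of highest to lowest summed level of the 5 genes. It stood at 75.4 CPM (73.5 to 77.3) in HSC, 112 CPM (110 to 114) in Dorsal, 118 CPM (116 to 120) in Ventral and 116 CPM (113 to 119) in Mesenchymal. The limits of Mesenchymal overlapped with those of Ventral and of Dorsal, so their order is not settled even for these libraries. Without its deepest cell Mesenchymal stood at 90.1 CPM, and without Ventral 41 Ventral stood at 124 CPM. The median cell stood at 58.6 CPM in HSC, 79.9 CPM in Dorsal, 91.8 CPM in Ventral and 91 CPM in Mesenchymal. The lowest and highest cells were at 0 and 466 CPM among HSC, 0 and 949 CPM among Dorsal, 1.55 and 2239 CPM among Ventral and 0 and 455 CPM among Mesenchymal cells. At least 5 counts were found in 70.3% (57.6 to 81.1) of thinned HSC cells, 88% (79.6 to 93.9) of Dorsal, 88.8% (79.7 to 94.7) of Ventral and 82.6% (71.6 to 90.7) of Mesenchymal cells.

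Tgfbr3, the co-receptor, had at least 5 counts in more Dorsal cells, 44 of 93, than Ventral (19 of 89), Mesenchymal (20 of 88) or HSC cells (19 of 65). Its summed level was 14.9 CPM (14.1 to 15.8) in HSC, 30.7 CPM (29.6 to 31.7) in Dorsal, 137 CPM (135 to 140) in Ventral and 13.2 CPM (12.3 to 14) in Mesenchymal. The Ventral value came from 1 cell: Ventral 41 held 14672 of the 15193 counts, or 96.6%, and without it Ventral stood at 5.77 CPM, below the other 3 groups. Among wells with an index in common with Ventral 41, 8 of 17 had at least 5 counts, and among the other wells of the pool 10 of 71, and the part that reads assigned to the wrong well had in this was not tested. No other group rested on 1 cell, the highest share being 15.1% of the HSC counts.

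Across cells the median Tgfbr3 level was 0 in HSC, Ventral and Mesenchymal and 2.28 CPM in Dorsal, and the highest was 137 CPM among HSC, 242 CPM among Dorsal, 716 CPM among Ventral and 155 CPM among Mesenchymal cells. The share of thinned cells with at least 5 counts was 21.9% (14 of 64; 12.5 to 34) of HSC, 40.2% (37 of 92; 30.1 to 51) of Dorsal, 15% (12 of 80; 8.0 to 24.7) of Ventral and 18.8% (13 of 69; 10.4 to 30.1) of Mesenchymal cells. By this measure Dorsal lay above Ventral with no overlap of the limits, the reverse of the summed levels.

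**Figure D2:**
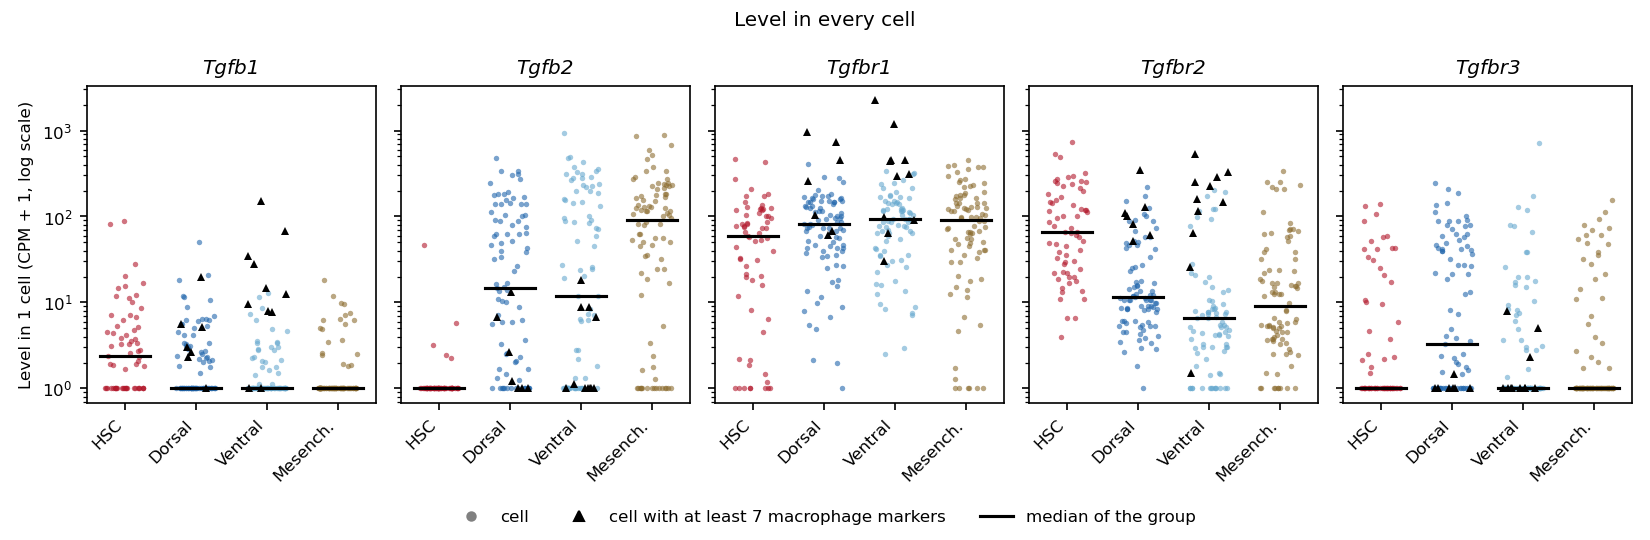
Level of each gene in each single cell, as CPM + 1 on a log scale, by sorted group, with a line at the median and black triangles for the 18 cells with at least 7 macrophage markers. Tgfb2 is at 0 in 19 Dorsal and 26 Ventral cells and spread up to 472 and 925 CPM in the others, the triangles lie high for Tgfbr1 and Tgfbr2 and near 0 for Tgfb2 and Tgfbr3, and 1 Ventral cell at 716 CPM stands apart for Tgfbr3.

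Levels of different genes were compared per kilobase of merged exons, as CPM per kilobase. In HSC the order was Tgfbr2 at 18.4, Tgfbr1 at 11.7, Tgfb1 at 5.49, Tgfbr3 at 2.45 and Tgfb2 at 0.0474. In Mesenchymal it was Tgfb2 at 22, Tgfbr1 at 18.1, Tgfbr2 at 3.68, Tgfbr3 at 2.16 and Tgfb1 at 0.759. In Dorsal Tgfbr1 stood at 17.4 and Tgfb2 at 13.4, against 5.04 for Tgfbr3, 4.94 for Tgfbr2 and 1.05 for Tgfb1. In Ventral Tgfbr1 stood at 18.4, Tgfb2 at 17.8, Tgfbr2 at 3.54 and Tgfb1 at 2.11, and Tgfbr3 at 22.6 with and far lower without Ventral 41. By summed counts HSC was thus the group with more type II than type I receptor RNA per length, and the other 3 groups had more type I. The HSC medians were 65.8 CPM for Tgfbr2, with 8187 exon bases, and 58.6 CPM for Tgfbr1, with 6414. By these medians the order of the 2 receptors per length was the reverse in HSC.

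The fold between 2 groups is the log2 ratio of (CPM + 1), and a gene is counted as higher or lower at 2-fold or more among genes with at least 100 counts over both groups. HSC and Mesenchymal were compared to ask what the blood-forming cells and the mesenchyme below the aorta carry. Of the 5 genes 2 were higher in HSC and 1 lower, where 16.6% of the 12758 genes measured were higher and 22.6% lower. Tgfbr2 stood at 151 CPM in HSC and 30.1 CPM in Mesenchymal (log2 fold 2.29), Tgfb1 at 11.9 and 1.65 CPM (2.29, and 1.07 without the deepest cells), and Tgfb2 at 0.247 and 114 CPM (-6.53). Tgfbr1 (-0.62) and Tgfbr3 (0.17) stayed within 2-fold. The members' counts were also 2 and 1 without the deepest cell of each group (all genes 16.4% and 21.7%), with cells weighted equally (15.3% and 21.2%) and without each gene's top cell (16.2% and 22.4%). Tgfbr2 ran from 1.75 to 2.33 and Tgfb2 from -8.37 to -5.95 over all alternatives tried.

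HSC set against Ventral gave 2 genes higher and 2 lower, where 14.1% of 13104 genes were higher and 24.5% lower. Tgfbr2 had a log2 fold of 2.34 and Tgfb2 of -6.23 (1.96 and -6.50 without the deepest cells). Tgfb1 (1.21) and Tgfbr3 (-3.12) each turned sign without the deepest cells, to -0.14 and 1.35. The members' counts were then 2 higher and 1 lower (all genes 11.9% and 24.7%), against 1 and 1 with cells weighted equally (9.04% and 24.6%) and 2 and 1 without each gene's top cell (13.8% and 21.6%). Without cells with at least 3 macrophage markers in Ventral, Tgfbr2 stood at 3.55 and Tgfb1 at 2.48, and without those with at least 7 markers at 2.72 and 2.54. All HSC cells were kept, though 20 of 65 had at least 3 of the markers, so the cut at 3 was made on the Ventral side only. Ventral 15, which held 36.5% of the Ventral Tgfbr2 counts, was left out by the cut at 3 markers only.

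Dorsal and Ventral were compared to ask how Ngfr+ cells differ between the sides of the aorta. Of the 5 genes 0 were higher in Dorsal and 1, Tgfbr3, lower, where 10.1% of 13152 genes were higher and 8.30% lower. The log2 fold of Tgfbr3 was -2.13, and 2.23 without the deepest cell of each group. The members' counts were then 1 higher and 0 lower (all genes 6.58% and 6.74%), as without each gene's top cell (12.7% and 2.82%), and 0 and 0 with cells weighted equally (3.31% and 5.56%). Tgfb1 (-0.77), Tgfb2 (-0.40), Tgfbr1 (-0.08) and Tgfbr2 (0.47) stayed within 2-fold. Without the deepest cells they stood at -0.91, -0.65, -0.12 and 0.04 in the same order. Without cells with at least 3 macrophage markers, the Tgfbr2 level was 34 CPM for Dorsal and 11.9 CPM for Ventral, a log2 fold of 1.44. Without cells with at least 7 markers it was 33.4 CPM for Dorsal and 21.9 CPM for Ventral, a log2 fold of 0.59. The cut at 3 markers also left out Ventral 15, a cell with at least 5 Sox10 counts and fewer than 7 macrophage markers. That cell held 1168 of the 3203 Ventral Tgfbr2 counts, or 36.5%.

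Ventral and Mesenchymal were compared to ask what separates Ngfr+ cells from the mesenchyme on the same side. Of the 5 genes 2 were higher in Ventral and 0 lower, where 17.1% of 13065 genes were higher and 12.9% lower. Both calls rested on few cells. Tgfbr3 had 3.29 on the log2 scale, and -1.19 when the deepest cells were left out; Tgfb1 had 1.08, and -0.25 without the Ventral cells with at least 7 macrophage markers. The members' counts were 1 higher and 1 lower without the deepest cells (all genes 17.6% and 10.7%), 1 and 0 with cells weighted equally (16.4% and 7.68%) and 0 and 0 without each gene's top cell (13.7% and 12.5%). Tgfb2 (-0.30), Tgfbr1 (0.03) and Tgfbr2 (-0.05) stayed within 2-fold.

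A cell needs both Tgfbr1 and Tgfbr2 to signal, so the pair was counted in the same thinned cells. At least 5 counts of both were found in 59.4% of HSC cells (38 of 64; 46.4 to 71.5), 35.9% of Dorsal (33 of 92; 26.1 to 46.5), 20% of Ventral (16 of 80; 11.9 to 30.4) and 30.4% of Mesenchymal cells (21 of 69; 19.9 to 42.7). In HSC the cells with 1 receptor mostly had Tgfbr2 (25% with Tgfbr2 alone and 10.9% with Tgfbr1 alone). In the other groups they mostly had Tgfbr1, which stood alone in 52.2% of Dorsal, 68.8% of Ventral and 52.2% of Mesenchymal cells, against 4.35%, 5.0% and 4.35% with Tgfbr2 alone. Alone here means under 5 counts of the other receptor, not its absence. At least 1 thinned Tgfbr2 count was found in 98.4% of HSC, 89.1% of Dorsal, 68.8% of Ventral and 72.5% of Mesenchymal cells. The limits on the pair in HSC overlapped slightly with those of Dorsal and not with those of Ventral or Mesenchymal.

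Cells with Tgfb2 and both receptors made up 23.2% of Mesenchymal (16 of 69; 13.9 to 34.9), 10% of Ventral (4.42 to 18.8), 12% of Dorsal (6.12 to 20.4) and 0 of 64 HSC cells. Tgfb1 with both receptors was found in 9.38% of HSC cells (6 of 64; 3.52 to 19.3), 1.09% of Dorsal, 3.75% of Ventral and 1.45% of Mesenchymal cells. Both ligands met in 1 Dorsal and 2 Mesenchymal thinned cells and in 0 of the HSC and Ventral ones. All 3 receptors met in 15.6% of HSC, 16.3% of Dorsal, 3.75% of Ventral and 5.80% of Mesenchymal cells. Within a group the levels of Tgfbr1 and Tgfbr2 were hardly related from cell to cell, with a Spearman correlation of 0.04 over the 65 HSC cells and 0.14 over the 88 Mesenchymal cells.

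**Figure D3:**
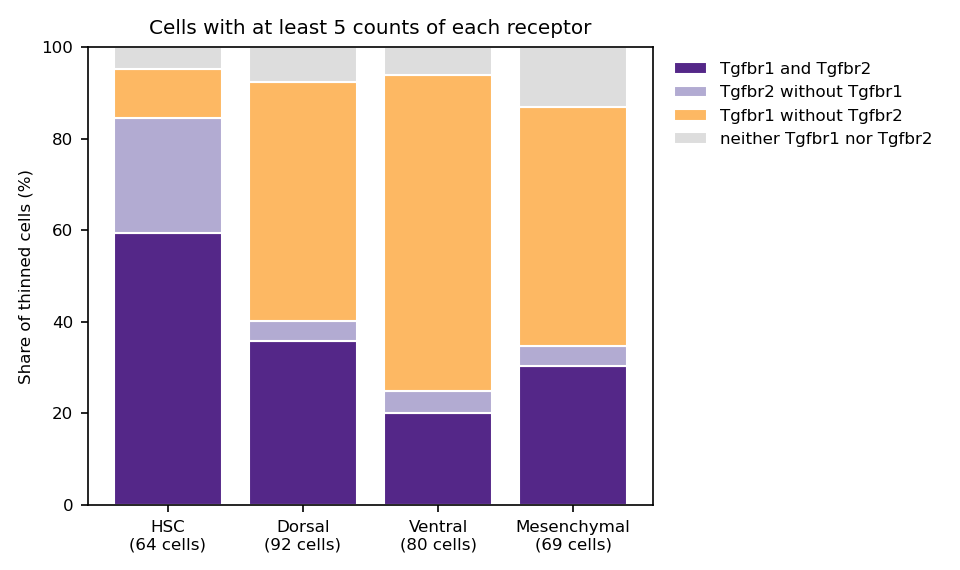
Share of cells, in percent, with at least 5 counts of Tgfbr1 and Tgfbr2 after thinning to 310000 counts, stacked for the 4 groups. Both receptors reach 5 counts in 59.4% of HSC cells and in 20% to 35.9% of the other groups. In those groups most cells reach 5 counts of Tgfbr1 only, which does not mean that Tgfbr2 is absent.

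The Ngfr+ groups are mixed, so the genes were followed over cells with at least 5 and under 5 counts of Sox10, a factor that keeps neural crest and glial identity. Classes cut on counts are ranges and not cell types, and this split was chosen after the data were seen. With the 7 Dorsal and 11 Ventral cells of at least 7 macrophage markers set apart, 83 Dorsal and 44 Ventral cells had at least 5 Sox10 counts, and 3 Dorsal and 34 Ventral cells had fewer. In Ventral the Tgfb2 mean over cells was 132 CPM (lowest 0, median 86.7, highest 494) with Sox10 and 85.1 CPM (0, 1.0 and 925) with fewer Sox10 counts. At least 5 Tgfb2 counts were found in 33 of these 44 and in 11 of these 34 cells, so among cells with little Sox10 a minority carried the ligand. In Dorsal the 83 cells with Sox10 had a Tgfb2 mean of 70.5 CPM (0, 25.8 and 472), and the 3 others were too few to compare, with 0 of 3 at 5 counts or more.

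Tgfbr3 had a mean of 33 CPM and a median of 6.31 CPM in the 83 Dorsal cells with Sox10, with at least 5 counts in 44 of them. The 44 Ventral cells with Sox10 had a mean of 10.6 CPM and a median of 0, with 13 positive. The 34 Ventral cells with less Sox10 had a mean of 34.1 CPM, which includes Ventral 41, a median of 0 and 6 positive cells. Over the 93 Dorsal cells the Spearman correlation of Tgfbr3 was 0.62 with Ngfr, 0.58 with Erbb3, a receptor of glial precursors, and 0.53 with Sox10, and it was 0.11 with the total count of a cell. Over the 89 Ventral cells the same values were 0.19 with Ngfr, 0.03 with Erbb3 and -0.03 with Sox10. The points of a group share 1 pool, the difference between the groups was not tested, and the values are a description.

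The macrophage-marker cells carried a different set. Tgfbr1 stood at a mean over cells of 375 CPM (lowest 59.6, median 260, highest 949) in the 7 Dorsal and 516 CPM (28.9, 308 and 2239) in the 11 Ventral cells, and Tgfbr2 at 125 CPM (51.1, 99.4 and 346) and 193 CPM (0.497, 157 and 526). In the cells with at least 5 Sox10 counts the Tgfbr1 means were 85.9 CPM for Dorsal and 91.6 CPM for Ventral, and the Tgfbr2 means 27.4 CPM for Dorsal and 18.5 CPM for Ventral. The Tgfb1 mean was 4.64 CPM in the Dorsal and 29.6 CPM in the Ventral macrophage-marker cells, where 2 of 7 and 6 of 11 had at least 5 counts. Tgfb2 had medians of 0.215 and 0 CPM in these cells and Tgfbr3 had medians of 0, with 0 of 18 cells positive for Tgfbr3. Ptprc stood at 420 CPM in the 7 Dorsal and 441 CPM in the 11 Ventral cells. Setting the minimum at 3 markers took 33 Dorsal cells, in which Sox10 stood at 298 CPM, and 16 Ventral cells; the minimum of 7 was chosen after the distribution was seen.

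**Figure D4:**
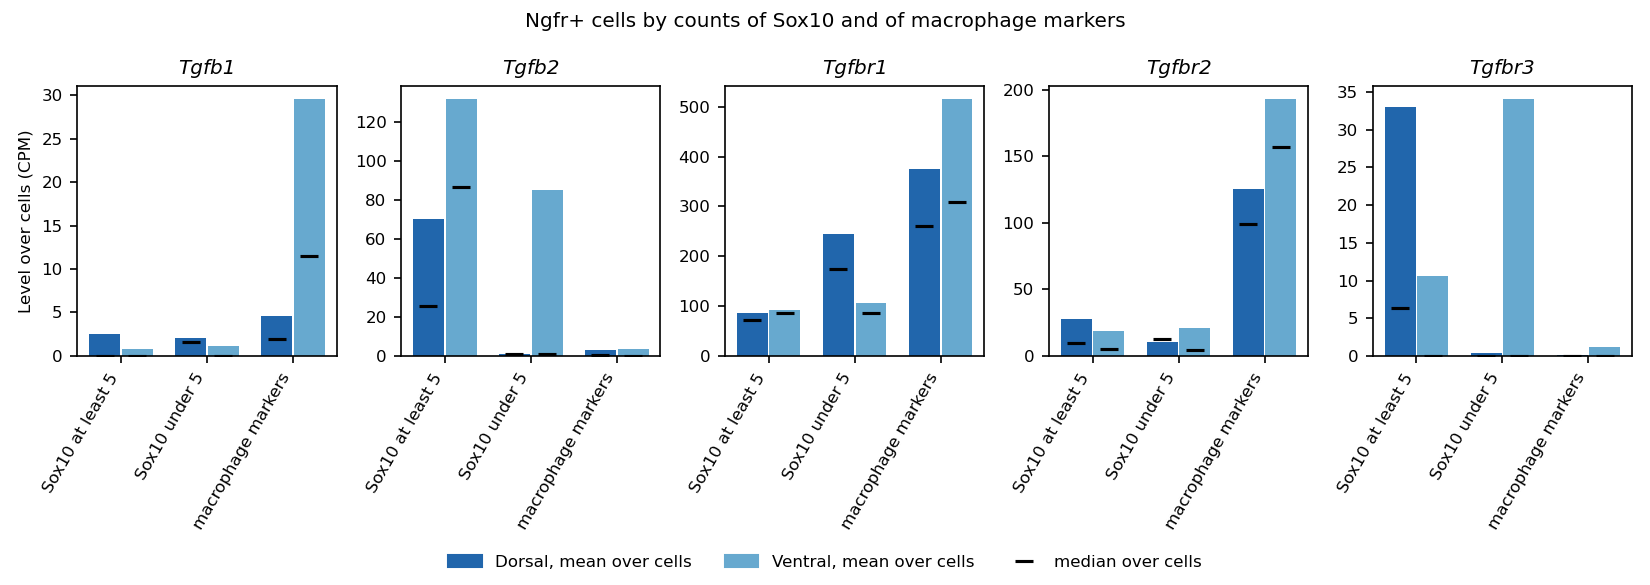
Mean (bars) and median (dashes) over cells of each gene's level, in CPM, in Dorsal and Ventral cells with at least 5 or under 5 counts of Sox10, with macrophage-marker cells set apart. The Tgfb2 means are 70.5 CPM in Dorsal and 132 CPM in Ventral cells with Sox10 and 85.1 CPM in Ventral cells with less, Tgfb1, Tgfbr1 and Tgfbr2 have their highest means in macrophage-marker cells, and the Ventral bar of Tgfbr3 in cells with less Sox10 includes Ventral 41.

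Within Mesenchymal, Tgfb2 was set against Acta2, the actin of smooth muscle. The 53 cells with at least 5 Acta2 counts had a mean Tgfb2 level of 170 CPM (lowest 0, median 124, highest 893), and the 35 cells with fewer had a mean of 87 CPM (0, 23.7 and 866). At least 5 Tgfb2 counts were found in 45 of 53 and in 20 of 35 cells. The Spearman correlation over the 88 cells was 0.44 with Acta2, 0.30 with Col1a1, a fibrillar collagen, and -0.30 with Pdgfra, a receptor of fibroblast precursors, against -0.10 with the total count. It was 0.22 with Tagln, another smooth muscle gene, 0.17 with Pdgfrb and 0.14 with Rgs5, a pericyte gene. Tgfbr1 medians were 77.1 CPM in cells with Acta2 and 94.6 CPM in those without, and Tgfbr2 medians 10.9 and 6.92 CPM, while the Tgfbr2 means ran the other way, at 27.2 CPM with Acta2 and 47.1 CPM without.

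Within HSC none of the 5 genes followed Procr, Mecom, Kit or Gfi1, genes known for stem and progenitor cells, by more than a correlation of 0.28 in size. Tgfbr2 stood at 0.25 with Procr and -0.23 with Mpo, a granulocyte enzyme, against 0.29 with the total count, and Tgfbr3 at 0.45 with Cd34, a surface protein of progenitors, and 0.30 with Mpo. Tgfbr3 had at least 5 counts in 19 of 65 HSC cells, so these values rest on few positive cells.

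The genes most like a member were ranked by Spearman correlation of CPM over all cells of the 4 groups among 11030 genes. For Tgfb2 they were Cald1 (0.56), an actin-binding protein, Gpc3 (0.55), a cell-surface proteoglycan, and Mmp14 (0.54), a membrane protease. For Tgfbr2 they were Abi3 (0.49), Lmo2 (0.48), a factor of blood progenitors, and Lgals9 (0.48). These values mix differences between groups with those between cells. Cald1 stood at 12.6 CPM in HSC and 555 CPM in Mesenchymal, and Lmo2 at 206 and 0.271 CPM. The best values were lower for Tgfbr3 (Timp3, 0.36), Tgfb1 (Rac2, 0.36) and Tgfbr1 (Abhd12, 0.27). Inside the group of highest summed level, the values included 0.48 each for Adam12 and Itm2a with Tgfb2 in Mesenchymal, and the best were Smoc1 for Tgfbr2 in HSC (0.47), Fam118a for Tgfb1 in HSC (0.54), Tec for Tgfbr1 in Ventral (0.44) and Mmp23 for Tgfbr3 in Ventral (0.49). In Dorsal, a group added after the values were seen, Tgfbr3 reached 0.72 with Egfl8, 0.71 with Moxd1 and 0.70 with Pls3.

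The rest of the pathway was followed in 5 lists, whose counts stand against the shares of all genes: 16.6% higher and 22.6% lower in HSC against Mesenchymal, 14.1% and 24.5% in HSC against Ventral, 10.1% and 8.30% in Dorsal against Ventral and 17.1% and 12.9% in Ventral against Mesenchymal. Of 15 measured genes of latency and activation, which store or release the ligand, 2 were higher and 10 lower in HSC against Mesenchymal (median log2 fold -2.27, and -0.10 over all genes). Itgb5, an integrin subunit, stood at 0.251 CPM in HSC and 71.4 CPM in Mesenchymal, Fbn2, a microfibril protein that anchors latent ligand, at 12.5 and 240 CPM, and Nrros, which holds latent TGF-beta1 on myeloid cells, at 52.5 and 2.25 CPM. Ventral against Mesenchymal gave 1 higher and 8 lower (median -1.20; all genes 0.09), with Nrros at 66.3 CPM in Ventral and 2.25 CPM in Mesenchymal, the latent-ligand binder Ltbp4 at 1.15 and 18.3 CPM and the activator Thbs1 at 1.72 and 26.3 CPM. HSC against Ventral gave 3 higher and 5 lower, with the integrin subunit Itgb3 at 25.2 CPM in HSC and 0.863 CPM in Ventral. Dorsal against Ventral gave 3 higher and 1 lower (3 and 2 without the deepest cells), with Itgb8, an integrin subunit that activates TGF-beta, at 18 CPM among Dorsal and 3.38 CPM among Ventral cells.

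Of 12 accessory and related receptors 2 were higher and 7 lower in HSC against Mesenchymal (median -1.10; 1 and 7 without the deepest cells and with cells weighted equally), and 1 higher and 5 lower against Ventral (median -0.62, and -0.21 over all genes). Eng, an endothelial and HSC co-receptor, stood at 148 CPM in HSC, 11.4 CPM in Ventral and 5.96 CPM in Mesenchymal, and Bmpr1a, a BMP receptor, at 5.93, 65.8 and 127 CPM. Between Dorsal and Ventral 3 were higher and 1, Eng, lower; it was 1 and 1 without the deepest cells and 0 and 1 with cells weighted equally. Between Ventral and Mesenchymal 0 were higher and 3 lower, 2 and 1 without the deepest cells and 4 and 0 with cells weighted equally.

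Of 10 SMAD genes and partners 0 were higher and 5 lower in HSC against Mesenchymal (median -1.03), led by Smad9 (-2.75), Zfyve9 (-2.26) and Smad1 (-2.24). It was 0 and 4 without the deepest cells (median -0.57) and 0 and 4 with cells weighted equally. Smad2 and Smad3, the SMADs that Tgfbr1 phosphorylates, stood at 55.6 and 39.1 CPM in HSC, 68.8 and 31.8 CPM in Dorsal, 55 and 20.9 CPM in Ventral and 57.1 and 28.2 CPM in Mesenchymal. Of the same 10, HSC against Ventral gave 0 higher and 4 lower, Dorsal against Ventral 0 and 1, and Ventral against Mesenchymal 0 and 1, where it was 1 and 0 without the deepest cells and 1 and 1 with cells weighted equally. Of 12 negative regulators 0 were higher and 4 lower in HSC against Mesenchymal, 0 and 3 against Ventral, 3 and 0 in Dorsal against Ventral (0 and 0 with cells weighted equally) and 0 and 1 in Ventral against Mesenchymal. The decoy receptor Bambi stood at 31.1 CPM in HSC and 130 CPM in Mesenchymal.

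Genes known to respond to TGF-beta, 21 measured, were 0 higher and 13 lower in HSC against Mesenchymal (median -4.48). The members that led were matrix and mesenchymal genes that mark the Mesenchymal sort as well: Col1a2 stood at 0.459 CPM in HSC and 581 CPM in Mesenchymal, Col1a1 at 0.882 and 571 CPM and Snai2, a mesenchymal factor, at 0.201 and 221 CPM. Not all matrix genes were low in HSC: Fn1, of the same list, stood at 557 CPM in HSC, 74 CPM in Ventral and 750 CPM in Mesenchymal. Smad7 and Skil, feedback inhibitors that TGF-beta induces, stood at 26.9 and 170 CPM in HSC and at 22.2 and 163 CPM in Mesenchymal. Against Ventral 4 were higher and 12 lower in HSC (median -2.85; 2 and 12 with cells weighted equally), with Id3 at 36 CPM in HSC and 691 CPM in Ventral. Ventral against Mesenchymal gave 2 higher and 10 lower (median -0.60; 1 and 10 without the deepest cells), and Dorsal against Ventral 3 higher and 4 lower (median 0.08, and 0.14 over all genes), with Ctgf, a secreted matrix protein also called Ccn2, at 16 CPM among Dorsal and 2.47 CPM among Ventral cells. The part that cell type had in these differences was not tested.

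**Figure D5:**
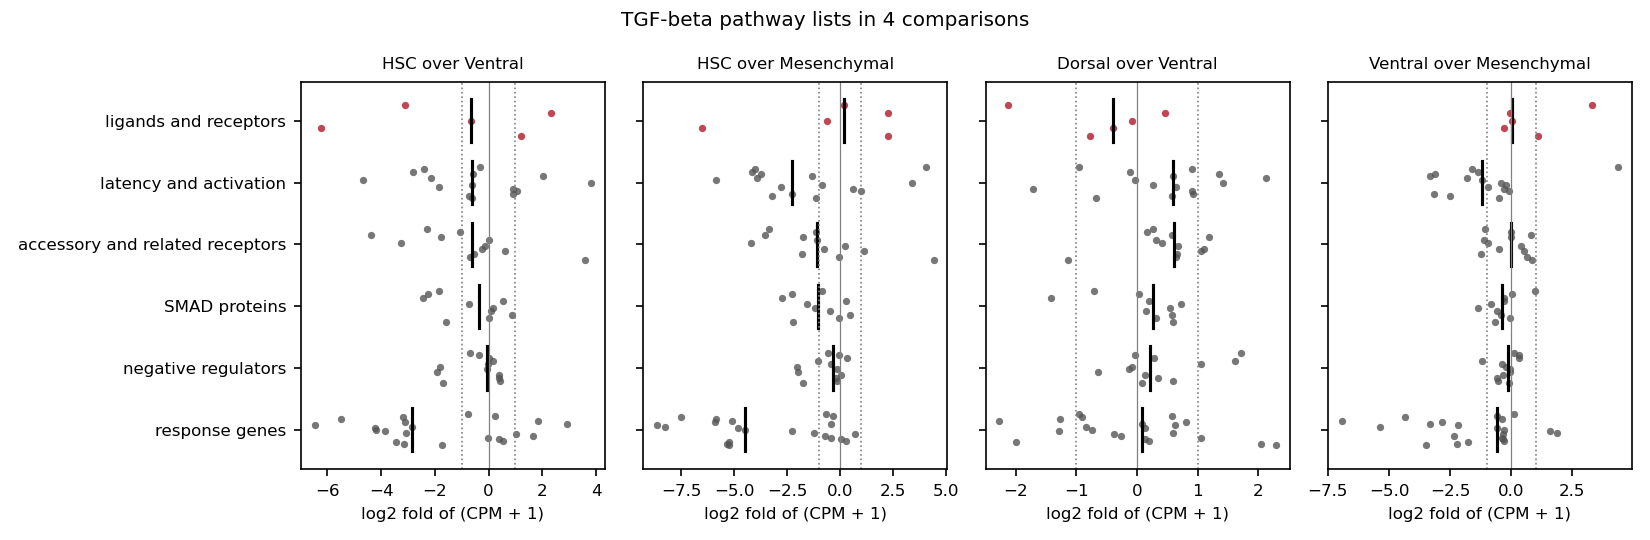
The log2 fold of (CPM + 1) of each measured gene of the pathway in 4 comparisons, 1 point per gene, with a line at the median of each list and dotted lines at 2-fold. The response genes have a median of -4.48 in HSC over Mesenchymal, while the ligands and receptors spread to both sides.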

How the data were processed

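RNA was measured in single cells, each 1 sample here, grouped by the labels. The authors deposited estimated counts per gene (expected counts), made with kallisto 0.43.1 on GRCm38 per the submitters' processing notes; 8.0% of the values above 0 are under 1. The authors' deposited log2 table holds, as its values show, log2 of 1 plus the estimated count divided by the cell's size factor, and served 1 alternative. The annotation, the summing to genes and the filters are not given in the sources used here. The 661 rows without a symbol, with 2.96% of counts, were left out.

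Counts were summed per group, with no test, and cells were not replicates. Thinning drew 310000 counts per cell from rounded counts and left out 1 HSC, 1 Dorsal, 9 Ventral and 19 Mesenchymal cells. Single wells were sorted, so no doublet caller was run. No 2 cells of a group correlated above 0.743. Gene lengths are from GENCODE M21 (GRCm38). The fold calculation was run on simulated Poisson counts with known changes and no added spread between cells. That run does not cover sums held mostly by 1 cell. Python 3.11.15, pandas 2.3.3 and scipy 1.17.1 were used. The genes, lists and comparisons were chosen with earlier results of these data known. The naming rule took all members, up to 3 genes with the largest fold of each list and comparison and the 3 genes most like each member. Smad2, Smad3, Smad7, Skil, Fn1 and the Acta2 and Sox10 splits were chosen after their values were seen. Alternatives left out the deepest cell, each gene's top cell, macrophage-marker cells or wells sharing an index, weighted cells equally, changed the pseudocount of 1 CPM to 0.1, dropped the minimum of 100 counts, or used the log2 table.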

Additional observations from a re-analysis of the deposited data

How the results depend on the processing

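The counts of genes at least 2-fold apart between HSC and Mesenchymal (2 higher, 1 lower) kept these values under all alternatives run. The 2 that left out macrophage-marker cells could not change them, because HSC cells were kept and 0 Mesenchymal cells had at least 3 markers. In HSC over Ventral, 2 higher became 1 with cells weighted equally and in the log2 table, and 2 lower became 1 under both and without the deepest cells, without Ventral 41 and the wells sharing its index, and without each gene's top cell; Tgfb1 turned to -0.14 without the deepest cells, and Tgfbr3 to 1.35 without the deepest cells, 1.53 without the shared-index wells and 1.03 without top cells. In Dorsal over Ventral, 0 higher became 1 without the deepest cells, cells of at least 3 macrophage markers, shared-index wells or top cells, and 1 lower became 0 without the deepest or top cells, with equal weights and in the log2 table; Tgfbr3 turned to 2.23, 0.65, 0.67, 2.53 and 2.11 without the deepest cells, with equal weights, in the log2 table, without shared-index wells and without top cells. In Ventral over Mesenchymal, 2 higher became 0 without top cells and 1 without the deepest cells, with equal weights, in the log2 table, without cells of at least 3 or at least 7 macrophage markers and without shared-index wells, and 0 lower became 1 without the deepest cells, cells of at least 3 macrophage markers or shared-index wells. The 1 lower was Tgfbr2 (-1.27) without cells of at least 3 markers, and Tgfbr3 without the deepest cells or shared-index wells. Tgfb1 there turned to -0.19 and -0.25 without cells of at least 3 and at least 7 markers, and Tgfbr3 to -1.19, -1.36 and -0.90 without the deepest cells, shared-index wells and top cells. The cause was not tested. The settings without top cells and with at least 7 markers were chosen after seeing the data. The order of genes per kilobase was the same with the longest transcript in all 4 groups. No paired analysis was possible because each group was 1 pool and the replicate numbers only name cells. Depth limits low genes: 0 of 64 thinned HSC cells with Tgfb2 does not show that none express it.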
